A study of Mus musculus with 16 samples.

Results

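The response of DBA/2J mice to the antipsychotic risperidone was read from 8 arrays of striatal RNA, 4 from treated and 4 from control mice, out of 16 arrays in the series; the other 8 arrays are from A/J mice, 4 treated and 4 control, under the same protocol. The arrays were chosen by their strain and agent labels, and 45037 probe sets were tested after the array controls were set aside, of which 28898 named 1 gene and together covered 17097 genes. All mice were males aged 7 to 8 weeks, of the DBA/2JRccHsd substrain (called DBA/2J here) in the comparison and of A/JOlaHsd (A/J) in the other 8 arrays. Treated mice received risperidone at 1 mg/kg by intraperitoneal injection of 0.25 mL once daily for 3 days. The control mice are labelled untreated, whereas the protocol names saline injections, so the neutral name control mice is used. Every array came from a separate biological replicate; the labels do not give the interval between the last injection and the dissection.

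Risperidone blocks dopamine D2 and serotonin 5-HT2A receptors, and DBA/2J is an inbred strain used beside A/J to study the motor side effects of such drugs. In brain, early response genes such as Fos, Egr1 and Arc are transcribed within minutes of neuronal firing and of signalling through cAMP and MAP kinases, and their transcripts decay quickly. A different set of genes, with Fkbp5 among them, is switched on by the glucocorticoid receptor when stress hormone rises.

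Before the groups were compared, the arrays were compared with each other. Control replicate 4 stood apart: its correlation with the other 3 control arrays, over all probe sets, lay between 0.977 and 0.979, while those 3 correlated with each other at 0.993 to 0.994. It lay at least 1 log2 unit from the mean of the other 3 controls in 575 probe sets, 265 higher and 310 lower, against 10 to 34 probe sets for each of the other controls. The spread of its values was narrower, with a standard deviation over probe sets of 1.768 against 1.835 to 1.85. In the lowest 20% of probe sets by level it read a median of 0.14 log2 above the other controls, and in the highest 20% 0.14 below them. The share of DBA/2J signal, read from 46 to 49 probe sets that separate the strains in control mice, was 87.6% in risperidone replicate 1, 94.6% to 102% in the other risperidone arrays and 96.1% to 103% in the controls. In A/J risperidone replicates 1, 2 and 4 it was 27.9%, 36.2% and 39.1%, against the A/J label. Those arrays enter the DBA/2J comparison through the spread that all 16 arrays share. They also enter the mean level over all arrays, which picks each gene's probe set and orders probe sets by level. The A/J values and the strain difference use them directly.

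**Figure D1:**
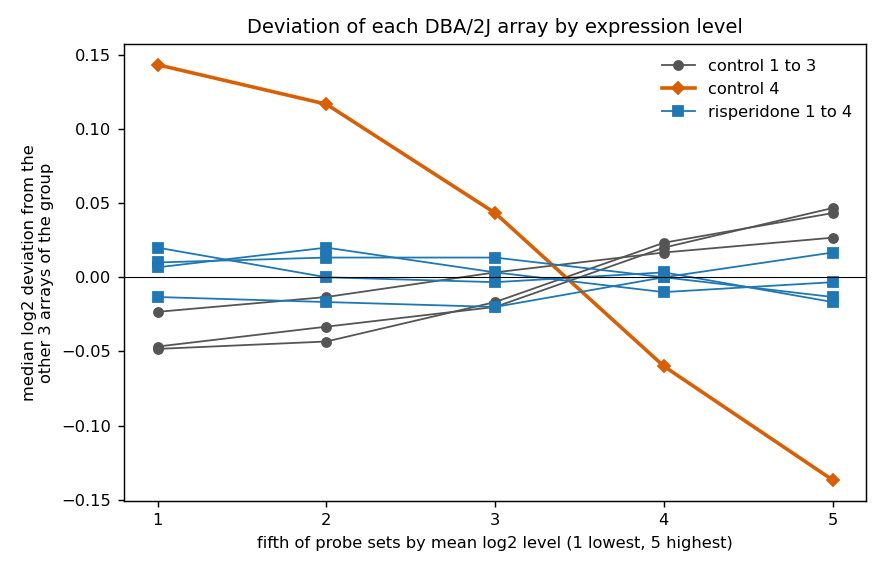
Median log2 deviation of each DBA/2J array from the other 3 arrays of its group (y axis), in 5 equal groups of probe sets ordered by mean log2 level (x axis). Control 4 (orange) runs from 0.14 in the lowest 20% to -0.14 in the highest, while the other 7 arrays stay between -0.05 and 0.05.

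The tissue label was checked against defining genes, bearing in mind that levels of different probe sets are not amounts that can be set against each other. The D2 receptor gene Drd2 read 3.62 to 3.79 in the controls, inside the lowest 20% of probe sets, which ends at 4.22. Drd1, which encodes the dopamine D1 receptor, read 5.85 to 6.13 and Ppp1r1b, which encodes DARPP-32, 5.99 to 6.76, both above the median of 5.67 over probe sets. Genes of cortical excitatory neurons were read in the same arrays: Slc17a7, a vesicular glutamate transporter, at 9.54 to 9.96 and Tbr1, a cortical transcription factor, at 8.06 to 8.79 in the controls. These are single genes of longer lists. Over all 16 arrays, 16 measured markers of striatal projection neurons had a median level of 7.5 and 14 cortical markers 8.29. The shorter lists for D1 and D2 projection neurons had 6.12 and 4.82. How much tissue outside the striatum each dissection held was not tested. Fewer cells of a type and less RNA per cell cannot be told apart in such bulk samples, here or in any result that follows.

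With limma fitted to all 16 arrays, 11 genes passed an adjusted p of 0.05 (Benjamini-Hochberg over all probe sets), which is 0.0643% of the 17097 genes. Of these, 9 fell after risperidone (0.0526%) and 2 rose (0.0117%). The 9 that fell were Egr2, Ccn1, Fos, Arc, Rassf3, Egr1, Flrt2, Dusp1 and Rell1, and the 2 that rose were Fkbp5 and Hif3a. In each of the 11 genes the 4 risperidone arrays lay wholly on one side of the 4 control arrays at the probe set that passed. Whatever their p, 46.9% of all genes were lower and 52.5% higher. At an unadjusted p under 0.05, 760 genes were lower (4.45%) and 987 higher (5.77%). The 4 risperidone arrays lay below all 4 controls in 339 genes (1.98%) and above them in 398 (2.33%).

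**Figure D2:**
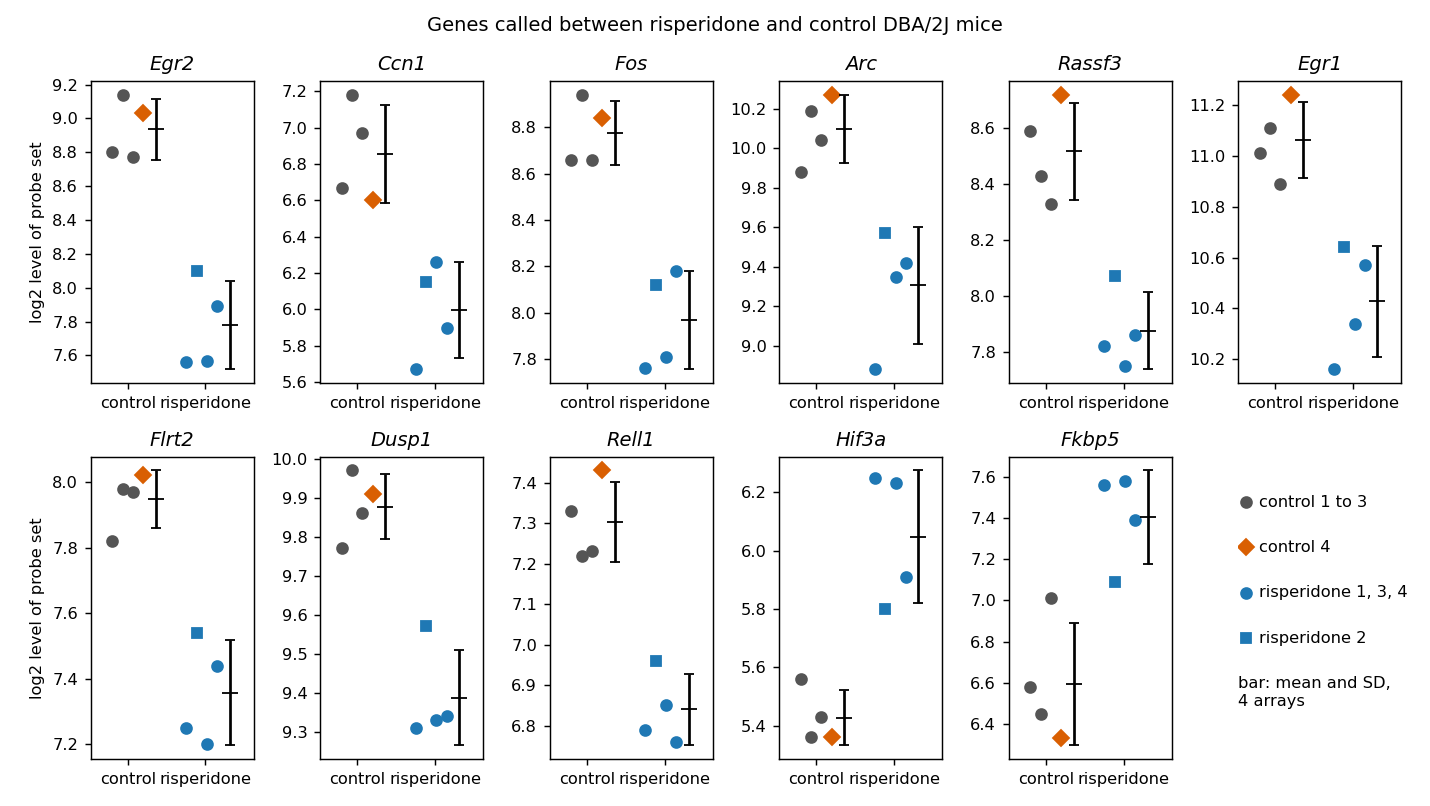
Log2 level (y axis of each panel, own scale) of the 11 genes that passed, at the probe set with the smallest p, in 4 control and 4 risperidone arrays; bars are the mean and SD of 4 arrays. Control 4 (orange diamond) sits among or beside the other controls in each panel, and risperidone 2 (blue square) is the treated array nearest the controls in every panel but those of Fos and Ccn1.

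The transcription factors came first. Egr2, a zinc finger factor induced by neuronal activity and needed for myelination in peripheral nerve, read 8.80, 9.14, 8.77 and 9.03 in control replicates 1 to 4 and 7.56, 8.10, 7.57 and 7.89 in risperidone replicates 1 to 4. The groups were separated by a wide gap, with risperidone replicate 2 the highest of the treated arrays and control 4 inside the range of the other controls. Egr2 fell by 1.16 log2 units (SE 0.13), or 2.23-fold, with an adjusted p of 0.000862. Its other probe set fell by a similar size (-1.17, SE 0.13, adjusted p = 0.000862).

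Fos, the AP-1 subunit that is the usual marker of recently active neurons, read 8.66, 8.94, 8.66 and 8.84 in the controls and 7.76, 8.12, 7.81 and 8.18 after risperidone. No treated array reached the lowest control. Fos fell by 0.81 (SE 0.10, 1.75-fold, adjusted p = 0.00284). Egr1, the founding member of the Egr family, read 11.01, 11.11, 10.89 and 11.24 in the controls and 10.16, 10.64, 10.34 and 10.57 after risperidone. Its groups also did not overlap, although control 4 was the highest control. Egr1 fell by 0.64 (SE 0.11, 1.55-fold, adjusted p = 0.0367).

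Promoters of genes that moved together are shown for the sequence features by which early genes are usually recognised. The 150 bases before the annotated start of 3 genes that fell, and of Fkbp5, which rose, are printed 5′ to 3′ from RefSeq (GRCm38.p6). Capitals mark the CArG box, the binding sequence of serum response factor, and TGACG, the core of the cAMP response element, on either strand (CGTCA where it lies on the other strand). Egr2 is at chr10:67537720-67537869 on the plus strand, Fos at chr12:85473740-85473889 on the plus strand, Dusp1 at chr17:26508473-26508622 on the minus strand and Fkbp5 at chr17:28486150-28486299 on the minus strand.
Egr2: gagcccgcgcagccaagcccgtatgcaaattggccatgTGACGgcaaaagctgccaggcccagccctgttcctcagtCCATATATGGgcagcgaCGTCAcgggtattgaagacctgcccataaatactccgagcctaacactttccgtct
Fos: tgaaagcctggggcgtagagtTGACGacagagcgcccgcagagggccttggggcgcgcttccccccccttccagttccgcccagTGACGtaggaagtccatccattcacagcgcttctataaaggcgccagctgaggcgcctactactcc
Dusp1: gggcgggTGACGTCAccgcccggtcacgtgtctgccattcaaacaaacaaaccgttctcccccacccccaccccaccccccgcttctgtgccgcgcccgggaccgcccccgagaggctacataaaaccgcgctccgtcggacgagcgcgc
Fkbp5: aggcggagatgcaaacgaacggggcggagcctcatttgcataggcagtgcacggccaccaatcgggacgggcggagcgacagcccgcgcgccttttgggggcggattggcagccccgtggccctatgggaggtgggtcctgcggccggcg
Of the 5 starts that RefSeq gives Egr2 1 is shown; it holds 1 CArG box, CCATATATGG, at positions -73 to -64 from the start. Dusp1 holds the full palindrome TGACGTCA, in which TGACG is read on both strands. The Fkbp5 stretch has neither. In the 300 bases of RefSeq promoters, 250 before and 50 after the start, TGACG stood in at least 1 promoter of each of the 6 genes matched among the 9 that fell (Ccn1, Dusp1, Egr2, Flrt2, Fos and Rell1; in Egr2 in 3 of its 5) and in neither of the 2 genes that rose. Counted in the same way, it stood in 4062 of the 13605 measured genes with a promoter (29.9%), in 15 of 21 early transcription factors (71.4%), in 14 of 19 early signalling and effector genes (73.7%) and in 6 of 20 glucocorticoid-responsive genes (30%). The CArG box stood in 1.65% of measured genes and the full palindrome in 2.93%. A strict form of the glucocorticoid response element, the binding sequence of the glucocorticoid receptor, was also searched. It stood in neither gene that rose, in 1 of 20 glucocorticoid-responsive genes (Sgk1) and in 2 of the 13605 measured genes. These are matches of letters, not sites shown to be bound.

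The gene lists were chosen with earlier results of these data known. The list of 26 measured early transcription factors, which includes 3 of the genes that passed, leaned lower. Of the 26 factors, 21 were lower and 5 higher. Their median difference was -0.16 against 0.01 over all genes, of which 46.9% were lower. In the list 3 passed, all lower (Egr2, Fos and Egr1), and 11 were lower at an unadjusted p under 0.05, where the background is 4.45%. Nr4a1, an orphan nuclear receptor of the early class, read 8.30, 8.64, 8.49 and 8.64 in the controls and 7.49, 8.07, 7.87 and 8.01 after risperidone. The groups did not overlap, but its difference of -0.66 (SE 0.13) missed the threshold with an adjusted p of 0.0956. Fosl2, another AP-1 subunit, was lower by 0.42 (SE 0.09, adjusted p = 0.143), again without overlap. Npas4, a neuron-specific early factor, was lower by 0.59 (SE 0.20, adjusted p = 0.311), with risperidone replicate 1 lowest at 4.95 and control 2 highest at 6.39.

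Other members of the Egr, Fos and Jun families differed by less; they are named for their family, after their values were seen. Fosb was lower by 0.39 (SE 0.10, adjusted p = 0.215), Egr3 by 0.22 (SE 0.10, adjusted p = 0.458) and Egr4 by 0.24 (SE 0.11, adjusted p = 0.452). Jun differed by -0.12 (unadjusted p = 0.312) and its control values of 8.10 to 8.64 covered the treated values except that of risperidone replicate 4 (8.00). Maff, a small Maf factor, was the 1 listed factor that was higher at an unadjusted p under 0.05 (0.395, SE 0.12, adjusted p = 0.259).

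Effector genes of the early response encode proteins that act at synapses, in the matrix or on signalling. Ccn1, a secreted matrix protein, read 6.67, 7.18, 6.97 and 6.60 in the controls and 5.67, 6.15, 6.26 and 5.90 after risperidone. Control 4 was the lowest control, the one nearest to the treated arrays, and still lay above all of them. Ccn1 fell by 0.86 (SE 0.14, 1.82-fold, adjusted p = 0.0355), and without control 4 the difference was larger, at -0.945 (adjusted p = 0.0235). Its second probe set gave -0.66 (adjusted p = 0.0616).

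Arc, which governs the removal of AMPA receptors from synapses, read 9.88, 10.19, 10.04 and 10.27 in the controls and 8.88, 9.57, 9.35 and 9.42 after risperidone. Risperidone replicate 1 was the lowest by a clear margin and control 4 the highest, and no values overlapped. Arc fell by 0.79 (SE 0.13, 1.73-fold, adjusted p = 0.0367). Nptx2, a pentraxin that clusters AMPA receptors, was lower by 0.475 (SE 0.10, adjusted p = 0.113) and Btg2, an antiproliferative early gene, by 0.51 (SE 0.10, adjusted p = 0.113), both without overlap. Of 28 measured early signalling and effector genes, 22 were lower and 6 higher, with a median of -0.10; 2 passed, both lower (Arc and Ccn1), and 8 were lower and 1 higher at an unadjusted p under 0.05, against 4.45% and 5.77% of all genes.

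MAP kinase phosphatases switch off the kinases that induce early genes and are themselves induced with them. Dusp1 read 9.77, 9.97, 9.86 and 9.91 in the controls and 9.31, 9.57, 9.33 and 9.34 after risperidone. The 3 treated arrays other than replicate 2 were nearly equal, and replicate 2 lay between them and the controls. Dusp1 fell by 0.49 (SE 0.08, 1.4-fold, adjusted p = 0.0367). Dusp6, which acts on ERK, was lower by 0.40 (SE 0.08, adjusted p = 0.0738) with values of 8.17 to 8.29 in the controls and 7.70 to 8.00 after risperidone. Of the 9 measured phosphatases 5 were lower and 4 higher, with a median of -0.13, where 46.9% of all genes were lower. Of the 9, 1 passed. At an unadjusted p under 0.05, 4 were lower and none higher, against 4.45% and 5.77% of all genes.

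Outside the early lists, 3 more genes fell. Rassf3, a Ras association domain protein, read 8.59, 8.43, 8.33 and 8.72 in the controls and 7.82, 8.07, 7.75 and 7.86 after risperidone, and fell by 0.64 (SE 0.11, 1.56-fold, adjusted p = 0.0367). Control 4 was its highest control, but control 3, the lowest, also lay above every treated array. The 2 further Rassf3 probe sets were lower by 0.33 and 0.31 and did not pass (adjusted p = 0.406 and 0.412). Flrt2, a membrane protein that guides axons and migrating neurons, passed through 1 of its 3 probe sets, which read 7.82 to 8.02 in the controls and 7.20 to 7.54 after risperidone (-0.59, SE 0.09, adjusted p = 0.0226). Its brightest probe set was lower by 0.41 and missed (adjusted p = 0.175). Rell1, a receptor-like membrane protein, read 7.22 to 7.43 in the controls and 6.76 to 6.96 after risperidone and fell by 0.46 (SE 0.08, adjusted p = 0.0367), with -0.20 at its second probe set (adjusted p = 0.543).

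Both genes that rose stood in the glucocorticoid list. Fkbp5, a co-chaperone that dampens the glucocorticoid receptor, read 6.58, 6.45, 7.01 and 6.33 in the controls and 7.56, 7.09, 7.58 and 7.39 after risperidone. Control 3 was the highest control and came close to risperidone replicate 2, the lowest treated array. Fkbp5 rose by 0.81 (SE 0.13, 1.76-fold, adjusted p = 0.0367), and its other probe sets gave 0.35 (adjusted p = 0.283) and 0.03 at a control mean of 2.72 (adjusted p = 0.951). Hif3a, a subunit of the hypoxia-inducible factors, passed through 1 of 5 probe sets, which read 5.56, 5.36, 5.43 and 5.36 in the controls and 6.25, 5.80, 6.23 and 5.91 after risperidone (0.62, SE 0.10, adjusted p = 0.0367). At its brightest probe set the difference was 0.33 and the groups overlapped (adjusted p = 0.249).

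Of 24 measured glucocorticoid-responsive genes 20 were higher and 4 lower, with a median of 0.155, where 52.5% of all genes were higher. At an unadjusted p under 0.05, 9 were higher and 1 lower, where the background is 5.77% and 4.45%. Plin4, a lipid droplet protein, was higher by 0.62 (SE 0.14, adjusted p = 0.168), and its control values of 4.75 to 5.24 did not reach the treated values of 5.39 to 5.96. Pxdn, a matrix peroxidase, was higher by 0.34 (adjusted p = 0.209), with control 3 at 6.88 just above risperidone replicate 2 at 6.87. Tsc22d3, a leucine zipper protein known as GILZ, was higher by 0.49 (adjusted p = 0.306), but control 3 read 7.95, inside the treated range of 7.77 to 8.24. The mean level over the list was 7.253 in control 3, the highest of the controls, where the others lay at 6.99 to 7.031, and 7.143 to 7.345 in the treated arrays.

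Further genes separated the groups without passing. Among those lower, the 12 with the smallest p at or above the median level were Dusp6, Crh, Nr4a1, Dipk2a, Nptx2, Btg2, Ddit4l, Fosl2, Kcnh5, Zmat4, Arhgap32 and Slc16a7. Crh, the peptide that starts the stress hormone axis, read 7.73, 7.80, 7.60 and 8.02 in the controls and 6.8, 6.95, 6.66 and 7.39 after risperidone, a difference of -0.84 (SE 0.16, adjusted p = 0.0795). Risperidone replicate 4 and control 4 were each the highest of their group. Ddit4l, which restrains the growth kinase mTOR, read 7.03, 6.82, 6.82 and 6.61 in the controls and 5.58, 6.50, 5.97 and 6.19 after risperidone (-0.76, SE 0.16, adjusted p = 0.113).

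Among those higher, the 12 were Cmbl, Ttc39c, Myt1, Siah1b, Mylk, Rgs12, S100a10, 2900052N01Rik, Smim3, N4bp2, Abcc4 and Amigo2, with adjusted p between 0.099 and 0.176. In several of them control 4 carried much of the size. Smim3 read 5.7, 5.58, 5.67 and 4.56 in the controls and 6.05 to 6.36 after risperidone; its difference of 0.78 was 0.51 without control 4. Myt1, a zinc finger factor of oligodendrocyte precursors, read 5.83 in control 4 and 6.34 to 6.43 in the other controls, and its difference of 0.58 became 0.44. In Mylk, the smooth muscle myosin kinase, control 4 lay among the others (6.73 against 6.67 to 6.87) and the difference stayed at 0.50 (0.495 without it).

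The study's title names the mTOR pathway. Of 37 measured mTOR pathway genes 11 were lower and 26 higher, with a median of 0.04 that became 0.01 without control 4, and none passed. At an unadjusted p under 0.05, 3 were lower and 2 higher, against 4.45% and 5.77% of all genes. The smallest p of the list was that of Ddit4l, described above (-0.76, adjusted p = 0.113). Mtor itself read 8.59 to 8.70 in the controls and 8.60 to 8.69 after risperidone, a difference of 0.005 (SE 0.07, unadjusted p = 0.94) whose sign turned without control 4 (-0.0142), with a second quantile normalization (-0.0163), with array weights (-0.0052) and over the mean of its probe sets (-0.0008). Prr5, a subunit of mTOR complex 2, was higher by 0.30 (SE 0.11, adjusted p = 0.372) and the kinase gene Akt2 lower by 0.33 (SE 0.13, adjusted p = 0.378).

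Among 14 measured genes of receptors that risperidone binds, none passed. At an unadjusted p under 0.05, 4 were higher and none lower, against 5.77% and 4.45% of all genes. Htr2c, the serotonin 2C receptor, read 5.65, 5.32, 5.7 and 5.67 in the controls and 7.20, 6.10, 6.15 and 7.24 after risperidone (1.09, SE 0.28, adjusted p = 0.200). The groups did not overlap, and risperidone replicates 1 and 4 stood more than 1 unit above the rest. Drd2 was higher by 0.56 (SE 0.20, adjusted p = 0.328), with risperidone replicate 4 at 4.90 and the others at 3.89 to 4.20. The same 2 arrays were the highest for Baiap3 and Calb2, each the member with the smallest p of a list that did not lean as a whole. Baiap3 is listed for septum, pallidum and hypothalamus, where 8 of 15 markers were lower and 7 higher (median -0.02); it read 6.82 and 7.70 in risperidone replicates 1 and 4 and 5.24 to 5.88 in the other 6 arrays. Calb2, a calcium buffer, is listed for striatal interneurons, where 7 of 14 markers were lower and 7 higher (median 0.015); it read 6.72 and 7.27 there, against 6.16 and 6.31 in the other treated arrays and 5.54 to 5.91 in the controls.

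Choroid plexus and ependyma markers varied widely between the treated arrays. Ttr, the thyroid hormone carrier made by choroid plexus, read 11.97, 7.10, 8.69 and 6.84 in risperidone replicates 1 to 4 and 7.79, 6.0, 6.43 and 6.44 in the controls. Of the 14 measured markers 13 were higher and 1 lower, with a median of 0.27, where 52.5% of all genes were higher. The list's mean level was 4.558 to 4.806 in the controls and 4.764 to 5.696 after risperidone. Of 14 astrocyte markers 12 were higher (median 0.16), against the same 52.5% of all genes. Their list means were 8.046 to 8.134 in the controls and 8.194 to 8.390 after risperidone. Of 14 cortical markers 7 were lower and 7 higher, and 5 were lower and 1 higher at an unadjusted p under 0.05 (4.45% and 5.77% of all genes), among those lower Lamp5 (-0.45, adjusted p = 0.273). None of these markers passed, and their part in the early gene and glucocorticoid results was not tested.

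The remaining question was how far control replicate 4 drives the response. Over all genes its weight was large. With all arrays 4806 probe sets had an unadjusted p under 0.05, 2550 lower and 2256 higher; without control 4 there were 3952, of which 2605 were shared. Leaving it out therefore lost 2201 of the 4806 (45.8%), whereas leaving out another DBA/2J array lost 861 to 1667 (17.9% to 34.7%). Of 3928 probe sets that differed by at least 1.2-fold, 1870 still did so without control 4 (47.6%), and 54 changed sign. Without any 1 of the other 7 arrays, 78.3% to 92.6% kept that size and between 0 and 10 changed sign.

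**Figure D3:**
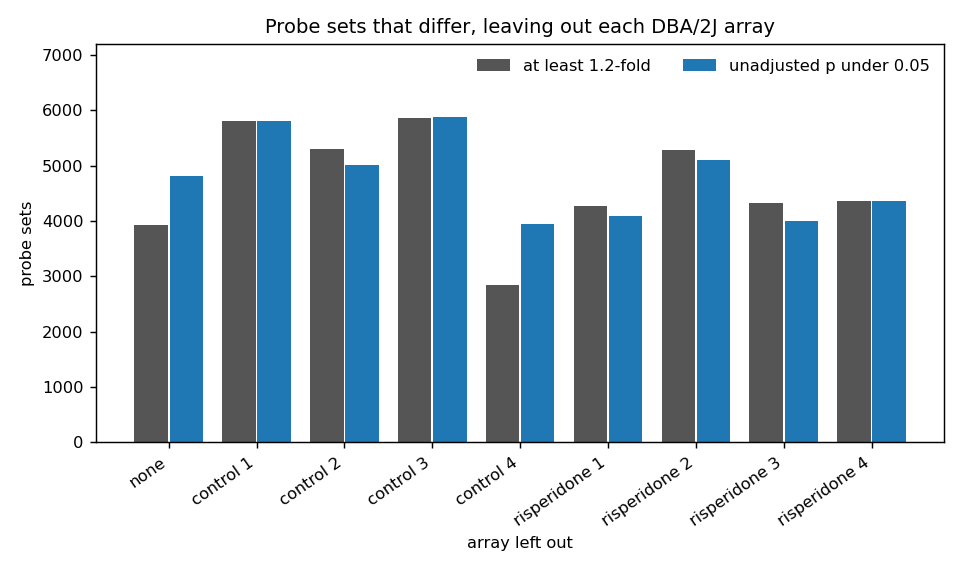
Number of probe sets (y axis) that differ at least 1.2-fold (grey) or have an unadjusted p under 0.05 (blue), with all arrays and without each DBA/2J array (x axis). The 1.2-fold count is 3928 with all arrays, falls to 2851 without control 4 and lies between 4266 and 5861 without any other array.

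Control 4 was also the control farthest from the risperidone mean in 2921 of the 4806 probe sets (60.8%), against 9.65% to 14.7% for each other control. Over all 45037 probe sets its share was 53.1%. The direction followed the level of the probe set. In the lowest 20% by level, 482 probe sets were lower and 243 higher at an unadjusted p under 0.05, which became 311 and 352 without control 4. In the highest 20%, 414 were lower and 614 higher, which became 442 and 285. The excess of lower values among dim probe sets and of higher values among bright ones was thus turned round in both.

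The genes farthest apart in control 4 give the extreme case, chosen for that and given as a description. Col1a1, a fibrillar collagen of meningeal fibroblasts, read 8.55 in control 4 and 5.64, 6.11 and 6.18 in the other controls, against 5.94 to 6.52 after risperidone. Its difference was -0.415 with control 4 and 0.23 without it. Crip1 read 4.88 in control 4 and 6.47 to 6.8 in the others, and its difference of 0.44 became 0.0042. C1qa, a complement subunit made by microglia, read 4.66 in control 4 and 6.01 to 6.10 in the others, and its difference of 0.50 became 0.15.

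Control 4 bore on the medians of ribosomal and respiratory chain genes. Medians of small lists moved as well, but within the range that leaving out another DBA/2J array gave. The 5 D2 projection neuron markers moved from 0.23 to 0.36 without control 4, and lay at 0.10 to 0.41 without another array. The 5 neuropeptide genes of projection neurons moved from 0.475 to 0.36, and lay at 0.24 to 0.67 without another array. Of 67 cytosolic ribosomal protein genes 65 were higher after risperidone, with a median of 0.16, where 52.5% of all genes were higher. Of the 67, 13 were higher at an unadjusted p under 0.05, against 5.77% of all genes. Without control 4 the median was 0.04 and none reached that p, while leaving out any other DBA/2J array gave a median of 0.15 to 0.22. The mean level of the list was 9.992 in control 4, 10.447 to 10.510 in the other controls and 10.469 to 10.581 after risperidone. Rplp0, a protein of the ribosomal stalk, read 8.70, 8.83, 8.88 and 8.20 in the controls and 8.86 to 9.0 after risperidone; its difference of 0.295 (adjusted p = 0.382) was 0.14 without control 4.

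Respiratory chain and ATP synthase genes did the same. Of 70 measured, 68 were higher, where 52.5% of all genes were. Their median of 0.16 became 0.03 without control 4 and lay at 0.13 to 0.21 without any other array. Cox6c, a subunit of cytochrome c oxidase, read 11.33, 11.43, 11.22 and 10.57 in the controls and 11.35 to 11.54 after risperidone. Control 4 was the lowest by a wide margin, control 2 lay inside the treated range, and the difference of 0.32 (adjusted p = 0.428) became 0.13 without it. Of 71 mitochondrial ribosomal protein genes 62 were higher, and their median of 0.13 became 0.05 without control 4. The 11 that were higher at an unadjusted p under 0.05 became 4, while over all 17097 genes 987 became 754. Mrps16 was among the 4: it read 7.4, 7.44, 7.50 and 7.20 in the controls and 7.63 to 7.76 after risperidone (0.30, and 0.24 without control 4).

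**Figure D4:**
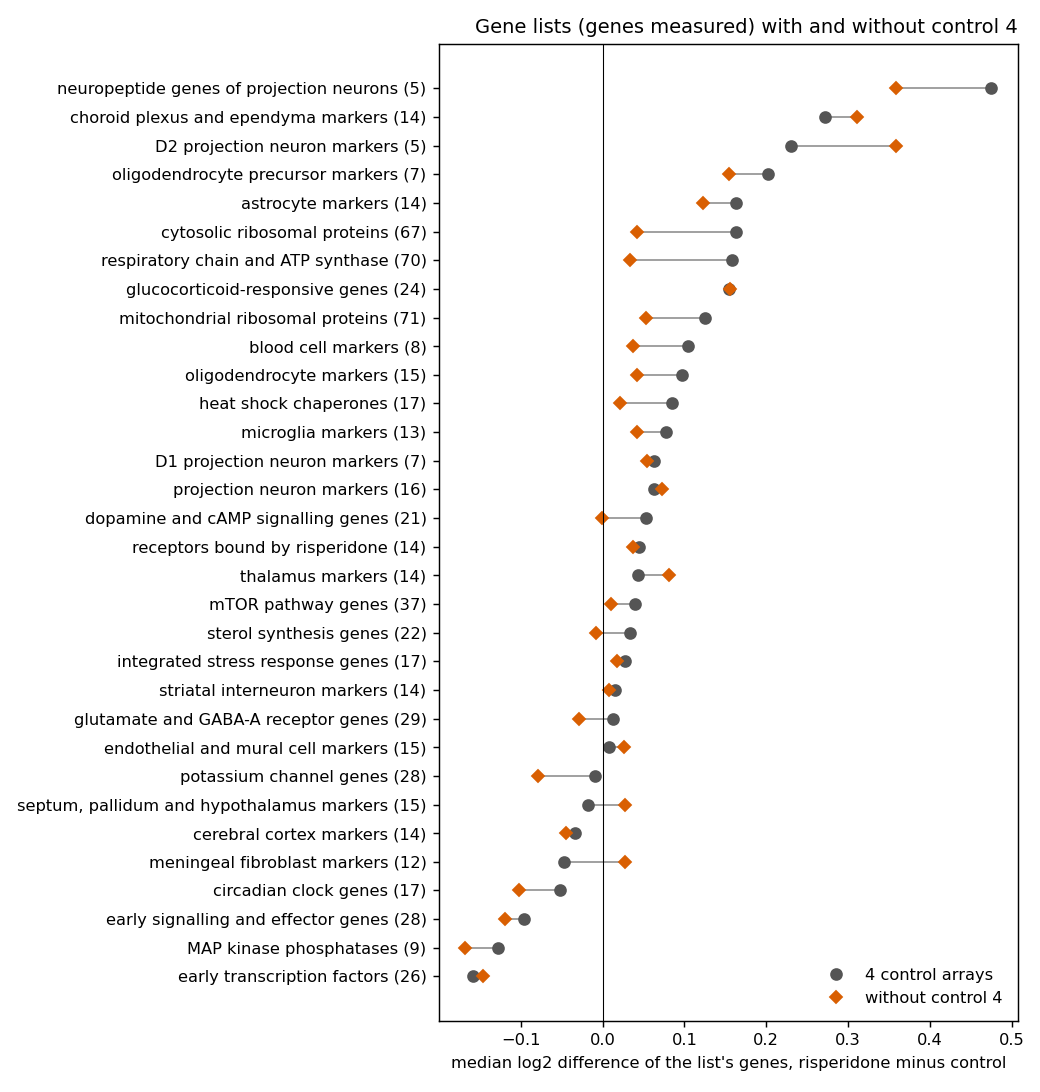
Median log2 difference (x axis, risperidone minus control) of each of 32 gene lists, with the number of genes measured, with 4 control arrays (grey) and without control 4 (orange). The cytosolic ribosomal list moves from 0.16 to 0.04 and the respiratory list from 0.16 to 0.03, while the early transcription factors stay at -0.16 and -0.15 and the glucocorticoid list is at 0.155 and 0.1558.

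At the probe sets that passed, the size of the difference changed little without control 4. They were chosen in a fit that included control 4. A probe set where control 4 lies far from the other controls has a large SE, as in Col1a1 (SE 0.39), and is less likely to pass. Small changes and kept p-values here were therefore partly fixed by that choice. At the 18 probe sets that passed, 12 of them naming a gene and 6 naming none, control 4 lay within the range of the other 3 controls in 9, farthest from the treated mean in 7 and nearest to it in 2. All 18 kept an unadjusted p under 0.05 without it. Egr2 was then -1.12, Fos -0.79, Arc -0.73, Egr1 -0.58, Dusp1 -0.48 and Fkbp5 0.725. The list medians were also close to those with all arrays: early transcription factors had -0.15 without control 4 (-0.21 to -0.14 without any other array), and glucocorticoid-responsive genes 0.1558 (0.14 to 0.23). Their counts at an unadjusted p under 0.05 were smaller, with 8 in place of 11 early transcription factors lower and 7 in place of 9 glucocorticoid-responsive genes higher. Over all 17097 genes the counts fell too, from 760 to 609 lower and from 987 to 754 higher.

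**Figure D5:**
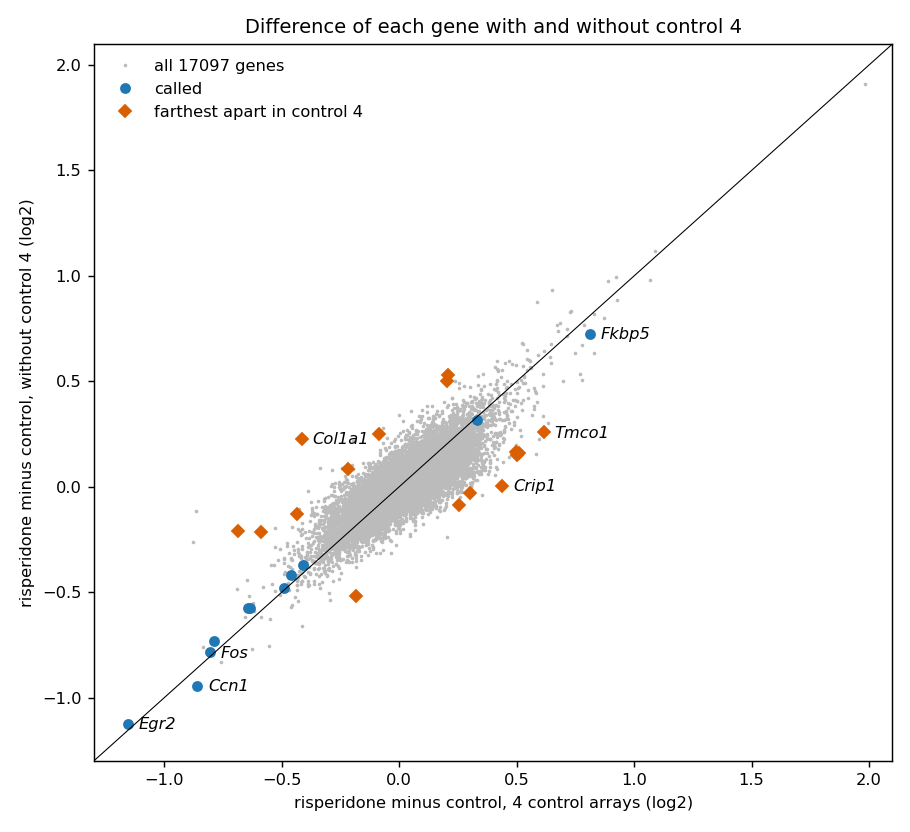
Log2 difference of each of 17097 genes (grey), risperidone minus control, with 4 control arrays (x axis) and without control 4 (y axis); the line marks equal values. Each gene is drawn at its brightest probe set, which for Flrt2 and Hif3a is not the one that passed. Genes that passed (blue), chosen with control 4 included, lie near the line, with Egr2 at -1.16 and -1.12. Genes chosen for being farthest apart in control 4 (orange) lie off the line.

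The number of genes past the threshold was less firm than these sizes, and it did not hang on control 4 alone. Without control 4 it was 4 genes: Egr2 (adjusted p = 0.00581), Fos (0.0123) and Ccn1 (0.0235) remained and Inhba, an activin subunit, joined at 0.0487. Without control replicates 1, 2 and 3 it was 3, 2 and 6. Risperidone replicate 2 pulled the other way, since 27 genes passed without it, all 11 named above among them, while 2, 3 and 9 passed without replicates 1, 3 and 4. Risperidone replicate 2 was the treated array farthest from the control mean in 8.74% of the 4806 probe sets, against 26.9% to 32.6% for the others. Over all 45037 probe sets its share was also the lowest, at 14.7% against 24.2% to 29.1%. Egr2 and Fos passed in all 16 fits that left out 1 array. In a fit of the 8 DBA/2J arrays alone, with 6 residual degrees of freedom in place of 12, limma called no gene (smallest adjusted p = 0.0533, at the second Egr2 probe set), with 3075 probe sets at an unadjusted p under 0.05. Without the 4 A/J risperidone arrays only Egr2 (adjusted p = 0.0121) and Fos (0.0284) passed.

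The same contrast in A/J gave these differences: Egr2 -0.25, Fos -0.55, Arc -0.41, Egr1 -0.16, Fkbp5 0.43 and Ccn1 -0.78. Dusp1 gave -0.26, Rassf3 -0.21 and Rell1 -0.06, and the probe sets that passed in DBA/2J gave -0.14 for Flrt2 and 0.405 for Hif3a. None of these passed in A/J (limma adjusted p from 0.119 to 0.994). The A/J list medians were -0.14 for early transcription factors and 0.13 for glucocorticoid-responsive genes. The difference between the strains' responses passed for no gene in limma (smallest adjusted p = 0.0542), while 4140 probe sets had an unadjusted p under 0.05. For Egr2 it was -0.905 (SE 0.18, adjusted p = 0.222) and for Ccn1 -0.08 (SE 0.20, adjusted p = 0.916). The A/J risperidone arrays with DBA/2J signal bear on these values, and their part was not tested.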

How the data were processed

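Striatal total RNA of 16 samples, extracted with Trizol, was read on Affymetrix mouse PM arrays, 1 array per biological replicate. The deposited log2 values were made by the authors with RMA, per the submitters' processing notes, which give no version; RMA corrects background, quantile-normalizes and summarises probes, so a distorted array is pulled to the common distribution but keeps its gene-level deviations. The number of arrays limits the precision. The table holds 45141 probe sets, 104 of them array controls that were not tested; 28898 others named 1 gene in the platform annotation, 551 several and 15588 none.

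limma 3.58.1 (R 4.3.3; lmFit, eBayes) was fitted to 4 group means over all 16 arrays, with Benjamini-Hochberg adjustment over 45037 probe sets, two-sided; every adjusted p comes from limma. A gene passed if any probe set assigned only to that gene reached an adjusted p under 0.05, and is otherwise represented by its probe set with the highest mean. All groups share 1 spread (12 residual degrees of freedom). The labels call the arrays biological replicates. Named genes were those that passed, up to 12 per direction that separated the groups without passing at or above the median level, up to 3 per list by p, the 8 farthest in each direction in control 4, and a fixed set; others are marked. The members and the 32 lists were chosen with earlier results of these data known. On simulated data the fit was tested before use. Alternatives were the 8 DBA/2J arrays alone, each array left out, array weights, a replicate block, other scalings, filters and probe set rules, and a minimum fold of 1.2. Promoters came from RefSeq (GRCm38.p6) and were matched by symbol to 13605 of 17097 genes; figures were drawn with matplotlib 3.10.9.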

Additional observations from a re-analysis of the deposited data

Results flagged for a closer look

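Values that stood apart from the other 3 arrays of their group by Dixon's gap ratio were found in 12 of 120 groups tested, where chance flags about 1 in 20. Control 4 accounts for 9 of them. Its root mean square distance from the other 3 controls was 0.364, against 0.185 to 0.214. It was the lowest control in the mean level of the cytosolic ribosomal (9.992), respiratory chain (9.513), mitochondrial ribosomal (7.241), potassium channel (7.645), circadian clock (7.33) and sterol synthesis (7.139) lists. It was also the lowest for Drd1 (5.85, next 6.10) and for Tac1, the substance P precursor (5.91, next 6.62).

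The other 3 values lie in other arrays. Dusp1 read 9.57 in risperidone replicate 2, where the next treated array read 9.34. Npas4 read 6.39 in control 2, with the next control at 5.97. The glucocorticoid-responsive list had a mean level of 7.253 in control 3, the next control being at 7.031.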

How the results depend on the processing

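Against 11 genes that passed and 4806 probe sets with an unadjusted p under 0.05, the 8 DBA/2J arrays alone gave 0 and 3075, a minimum fold of 1.2 gave 1 gene and 221 probe sets, omission of the A/J risperidone arrays 2 genes, array weights 5, the median-level filter 23 and eBayes with trend and robust options 17. Leaving out 1 of 16 arrays gave 2 to 27 genes; with 8 arrays alone it gave 0 to 1 genes, and 2755 probe sets without control 2 and 2430, 3113, 2382 and 2730 without risperidone replicates 1 to 4. The strain difference stayed at 0 genes except without A/J risperidone replicate 3 (7; range 0 to 7). The replicate block gave 12 genes and 5017 probe sets; Dusp1 (adjusted p = 0.0693) and Rell1 (0.065) then missed. Same-numbered arrays deviated together with r = 0.128, 0.0875, 0.107 and -0.024, and differently numbered arrays with r from -0.113 to 0.0232. The main fit uses no pairing, and whether the numbers mark one was not tested. Signs reversed for some named genes, none of which had passed, when 1 DBA/2J array was left out, with the same values for 8 arrays alone. The ranges over the arrays left out are given, and the reversing array is named. Without control 4 this held for Ccp110 (-0.0875 to 0.4025), Vcl (-0.0283 to 0.4283), Col1a1 (-0.7417 to 0.2283), Dnlz (-0.2750 to 0.2483), Erf (-0.3983 to 0.0850), Nts (-0.0633 to 0.0833) and Mtor (-0.0142 to 0.0225). Without control 3 it held for 5031425E22Rik (-0.0467 to 0.5033) and Pdyn (0.0017). Without risperidone replicate 1 it held for Pdyn (-0.1283 to 0.0092) and Mbp (-0.2008 to 0.0692), without replicate 2 for Mtor (-0.0075), without replicate 3 for Hecw2 (-0.5175 to 0.0092) and Dnlz (0.0142), and without replicate 4 for Nts (-0.0425). Array weights reversed Ccp110 (-0.0510), Col1a1 (0.0939), Dnlz (0.1596), Nts (-0.0700) and Mtor (-0.0052); a second quantile normalization (-0.0163) and the mean of probe sets (-0.0008) reversed Mtor. The cause was not tested. Dim probe sets near the array floor limit what could be measured.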
